A study of Mus musculus with 6 samples.

Results

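The genes described here encode the ligands and receptors of 4 axon guidance systems, the ephrins with their Eph receptors, the semaphorins with plexins and neuropilins, the slits with their robo receptors, and the netrins. They were chosen by symbol: every gene of the array's annotation whose single symbol begins with Epha, Ephb, Efna, Efnb, Sema3 to Sema7, Plxn, Slit, Robo or Ntn followed by a digit, or is Nrp1 or Nrp2. This gave 64 of the 18194 genes measured, of which 35 are ligands, 28 are receptors and 1, Plxna4os1, is an RNA antisense to Plxna4 that shares only the name. The study profiled the SVZ (subventricular zone), a strip of tissue beside the lateral ventricle where neurons are born in the adult, in male C57BL/6 mice. In 3 samples the strip was dissected on the injured side 48 h after stroke surgery by MCAO (middle cerebral artery occlusion), which starves striatum and lateral cortex of blood. The other 3 samples were taken 48 h after a sham operation. No transgene or drug is named for either group. Whether each array held the tissue of a single mouse is not stated, so p-values refer to the spread among these samples, and that spread may be technical.

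Guidance ligands steer growing axons and migrating cells by attracting or repelling them. Ephrins are bound to the membrane and signal on contact to Eph receptor kinases, class 3 semaphorins are secreted and act through neuropilins paired with plexins, most other semaphorins span the membrane and bind plexins directly, slits are secreted repellents read by robo receptors, and netrins attract or repel depending on the receptor. In the SVZ the same families are known for guiding neuroblasts towards the olfactory bulb, for restraining the division of stem cells, and, through neuropilins and plexins, for shaping blood vessels.

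On all 6 arrays, values are log2 expression values of 1 probe set per gene, a change of 1 being a doubling. Pairs of arrays had correlations across genes of 0.975 to 0.992. The SVZ label was checked against markers fixed for the tissue. All 7 neuroblast markers measured, all 6 of ependymal cells and all 6 of stem and transit-amplifying cells exceeded the median gene in sham tissue, as did all 6 of striatal neurons, the tissue bordering the SVZ, and 2 of 6 of the choroid plexus. All 7 astrocyte, 6 microglial and 6 mature oligodendrocyte markers measured also exceeded it. Of 6 markers of cortical and septal neurons 2 exceeded it, Zic1 and Sst, and Slc17a7, Tbr1, Neurod6 and Trpc4 did not. Apart from that list and the choroid plexus, the comparison therefore cannot tell the SVZ from other brain tissue. Of the guidance genes, 36 of 64 exceeded the median gene in sham tissue. Tissue was measured in bulk, so fewer cells of a type and less RNA per cell cannot be told apart.

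Guidance genes differed little between MCAO and sham tissue. None of the 64 passed an adjusted p of 0.05 in limma's test, adjusted over all genes by Benjamini and Hochberg's method, where 1.13% of all genes passed (1.12% higher and 0.0165% lower in MCAO). At an unadjusted p under 0.05 there were 6 guidance genes (9.38%), 3 higher and 3 lower in MCAO, against 8.77% of all genes (6.32% higher and 2.46% lower). MCAO and sham values did not overlap for 8 guidance genes, 4 higher and 4 lower, or 12.5%, and for 13.8% of all genes (8.44% higher and 5.37% lower). The median difference, MCAO minus sham, was -0.021 log2 over the guidance genes and -0.0064 over all genes, and 28 guidance genes were higher and 36 lower. The 95% confidence interval of the difference lay within 1 log2 of 0 for all 64, that is, inside a doubling or halving. It lay within 0.5 log2 of 0 for 52 of the 64 (81.2%, and 85.1% of all genes). The 12 whose interval reached 0.5 log2 or more were Efnb2, Nrp1, Plxna2, Plxnb2, Robo1, Robo2, Sema3e, Sema4a, Sema4b, Sema4d, Sema4f and Slit2. For these genes the fit of 3 arrays per group without a block does not bound the change below that size. With the sample number as a block, described below, only Nrp1 (0.29 to 0.69) and Plxnb2 (0.31 to 0.69) of the 12 had intervals that reached it.

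**Figure D1:**
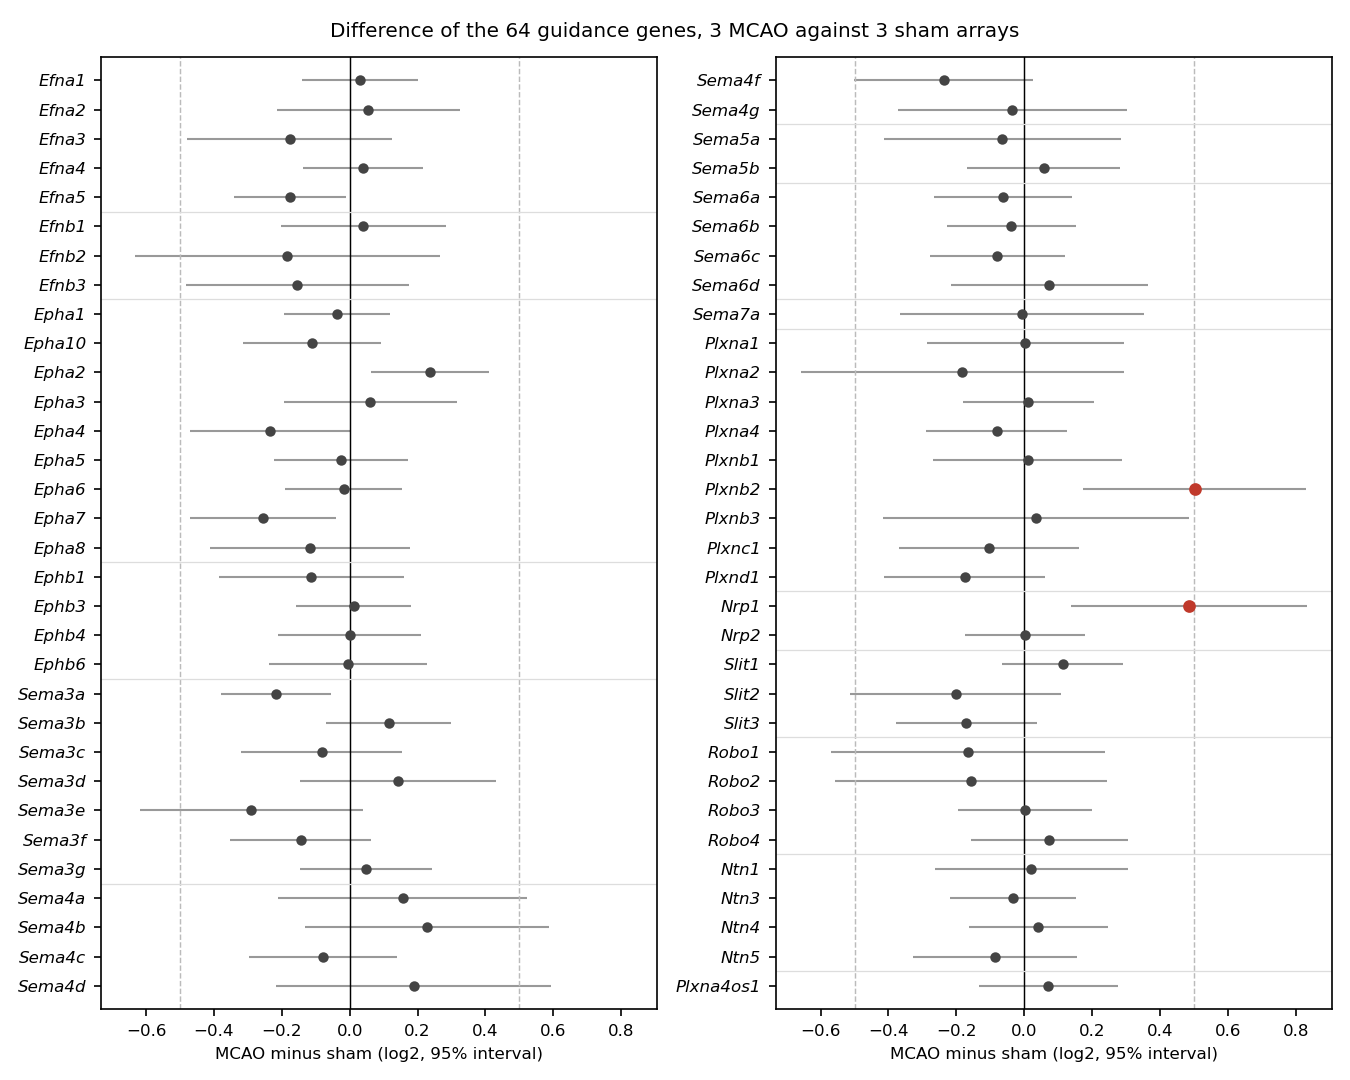
Log2 difference, MCAO minus sham, for each of the 64 guidance genes, ordered by family, with limma's 95% interval from the fit without a block (3 arrays per group). Dashed lines mark 0.5 log2 in each direction, and the red points, Plxnb2 and Nrp1, are the genes that passed once the sample number was allowed for; all other points lie between -0.29 and 0.24.

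Both groups carry samples numbered 1 to 3, and the numbers were taken to pair the arrays because same-numbered arrays deviated together across genes. The labels state no pairing, so calls with the block rest on a reading drawn from these same values. With the sample number as a block, 2 guidance genes rose, the receptors Plxnb2 and Nrp1, and none fell. That is 3.12% of them, where 6.12% of all genes passed with the block, 4.82% higher and 1.3% lower. By limma with the block the adjusted p was 0.00666 for Plxnb2 and 0.0101 for Nrp1, against 0.239 and 0.295 without it. Without the pairs numbered 1, 2 and 3 the block called 1, 8 and 2 guidance genes (1.56%, 12.5% and 3.12%), where 3.78%, 9.41% and 3.56% of all genes passed. Without pair 2 the 8 were 4 higher, Plxnb2, Nrp1, Sema4b and Sema4d, and 4 lower, Efnb2, Robo1, Robo2 and Sema3e, and over all genes 6.39% were then higher and 3.02% lower.

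Plxnb2 encodes plexin-B2, a receptor of class 4 semaphorins known for its part in the division and migration of neuroblasts. It read 8.60, 8.74 and 8.74 log2 on MCAO arrays 1, 2 and 3 and 7.88, 8.45 and 8.24 on the sham arrays. All MCAO values were above all sham values, and sham 1 was lowest. The means were 8.69 ± 0.082 and 8.19 ± 0.29 (SD, n = 3), a difference of 0.50 ± 0.14 log2 (SE), or 1.42-fold. Within the numbered pairs the differences were 0.72, 0.29 and 0.50. The call with the block held without each pair in turn, at adjusted p = 0.0286, 3.76e-04 and 0.0285 by limma without pairs 1, 2 and 3, and the difference was then 0.39, 0.61 and 0.50. One probe set reads this gene.

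Nrp1 encodes neuropilin-1, the coreceptor shared by class 3 semaphorins and vascular endothelial growth factor. It read 8.85, 8.27 and 8.36 on the MCAO arrays and 8.09, 7.91 and 8.03 on the sham arrays. The groups did not overlap, and MCAO 1 stood above the other 5 arrays. The difference was 0.49 ± 0.15 log2 (SE, n = 3 per group), or 1.40-fold, and it was 0.31 without MCAO 1. Within pairs it was 0.76, 0.37 and 0.33. Without the pair numbered 1 the blocked difference was 0.35 and no longer passed (adjusted p = 0.0639 by limma), while without pairs 2 and 3 it passed (0.00299 and 0.0125).

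Of the 4 probe sets that read Nrp1, 3 were higher on every MCAO array than on any sham array, by 0.49, 0.41 and 0.32 log2 in order of brightness. The dimmest read -0.047. Tested as probe sets among all 34958 with 1 symbol, with the block, the brighter pair passed at adjusted p = 0.0201 and 0.0390 by limma, and the third had 0.0936. The mean of the 4 gave 0.29. Nrp2, the second neuropilin, had means of 6.92 ± 0.091 (MCAO) and 6.92 ± 0.024 (sham) by its brightest probe set, a difference of 0.0026 with a 95% interval from -0.17 to 0.18. Another pair of its 4 probe sets read 0.21 and 0.20 higher, the first without overlap of the groups, and did not pass (adjusted p = 0.592 and 0.753 by limma).

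The promoters of these 2 genes, from 250 bases before to 50 after the start, are shown because no other guidance gene passed with the block. They come from RefSeq on GRCm38.p6, which lists 1 start for Nrp1 and 2 for Plxnb2, the upstream one being printed. Both strands were searched for the STAT motif TTCNNNGAA, the AP-1 motif TGANTCA and the hypoxia response cores ACGTG and GCGTG, and matches are in capitals.
Nrp1, chr8:128358823-128359122, plus strand: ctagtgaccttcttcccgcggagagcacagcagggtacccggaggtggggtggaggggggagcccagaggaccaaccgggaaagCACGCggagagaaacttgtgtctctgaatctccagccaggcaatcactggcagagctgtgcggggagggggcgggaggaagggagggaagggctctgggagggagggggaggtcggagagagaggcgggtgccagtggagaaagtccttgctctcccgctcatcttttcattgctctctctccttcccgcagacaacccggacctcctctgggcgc
Plxnb2, chr15:89180739-89181038, minus strand: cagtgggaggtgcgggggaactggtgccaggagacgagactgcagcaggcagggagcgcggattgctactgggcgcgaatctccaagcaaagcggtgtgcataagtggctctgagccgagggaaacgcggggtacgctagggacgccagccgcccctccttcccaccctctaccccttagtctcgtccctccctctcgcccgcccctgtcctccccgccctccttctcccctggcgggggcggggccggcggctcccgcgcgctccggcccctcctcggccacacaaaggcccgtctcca
The Nrp1 window held 1 match, to GCGTG on the reverse strand, starting at base 85 from the 5′ end. Neither Plxnb2 window matched any of the 4 motifs. Among 32851 promoter windows of this length, 8.30% held the STAT motif, 7.81% the AP-1 motif, 19.6% ACGTG and 32.4% GCGTG. The printed windows were 64% and 70.3% G or C with 14 and 27 CG pairs, and the medians over all windows were 52.7% and 7 CG pairs.

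Some markers of astrocytes, microglia, and monocytes and macrophages were also higher in MCAO tissue. Since Plxnb2 and Nrp1 passed only with the block, markers are counted with the block, and then without it. Averaged over 8 endothelial markers the level was 7.44 to 7.69 in MCAO and 7.45 to 7.53 in sham, and none of the 8 passed in either fit. Cldn5, a tight junction gene, read 0.28 and Pecam1 0.16 higher (adjusted p = 0.458 and 0.656 by limma without the block). Esam read 0.23, Kdr 0.14, Cdh5 0.088 and Tek 0.0066, while Flt1 read -0.12 and Slco1a4 -0.069. Averaged over 7 astrocyte markers the level was 10.46 to 10.61 in MCAO and 9.77 to 9.86 in sham. With the block 4 of the 7 rose, Gfap by 2.69, Aqp4 by 0.97, Aldh1l1 by 0.89 and Slc1a3 by 0.44, and without it 2 of them, Aqp4 and Aldh1l1, passed. Gja1 read 0.16, Gjb6 -0.035 and Slc1a2 -0.28. Over 6 microglial markers the level was 8.61 to 9.13 in MCAO and 8.30 to 8.39 in sham. With the block 4 of the 6 rose, Aif1 by 1.10, Csf1r by 0.65, Cx3cr1 by 0.46 and Tmem119 by 0.36, and without it Aif1 alone passed, while P2ry12 and Siglech read 0.15 and 0.16. Over 7 markers of monocytes and macrophages it was 6.83 to 7.11 and 6.38 to 6.44. In both fits 4 of the 7 rose, Lyz2 by 1.62, Mrc1 by 0.96, Plac8 by 0.64 and F13a1 by 0.62, while Ms4a7 read 0.25, Ccr2 0.039 and Cd163 -0.13, the last with all MCAO values below the sham values. None of those 7 reached the median gene in sham. In the other 11 marker lists 4 genes rose with the block, Mki67 and Top2a of stem and transit-amplifying cells by 0.83 and 0.73, Cd24a of neuroblasts by 0.66 and Rarres2 of ependymal cells by 0.30, and Drd1 of striatal neurons fell by 0.34. Without the block Mki67 alone passed. Of the same lists, Nes read 0.35, Thbs4 0.13, Egfr 0.12 and Prom1 -0.082. The other neuroblast markers lay between -0.049 (Dlx5) and 0.22 (Dlx1). The other ependymal markers lay between 0.022 (Ccdc153) and 0.30 (Tmem212), and the other striatal markers between -0.20 (Tac1) and -0.15 (Rgs9). Over all genes 4.82% rose and 1.3% fell with the block, and 1.13% passed without it. Markers beyond the first pair of each list are named after their values were seen. The array on which Nrp1 was highest, MCAO 1, also had the highest mean of 4 marker lists. These were microglia, astrocytes, monocytes and macrophages, and stem and transit-amplifying cells, while the other lists peaked on other arrays. Not every marker followed its list's mean. Gfap, Tmem119, Mrc1 and Ccr2 were lowest on MCAO 1 among the MCAO arrays, Gfap at 9.91 against 11.63 and 11.96 on MCAO 2 and 3. The part of these cell types in either difference was not tested.

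Semaphorin receptors other than these did not pass with or without the block. Of 9 plexins, 5 were higher and 4 lower, and those other than Plxnb2 lay between -0.18 and 0.035. Plxnd1, the vascular receptor of Sema3e, had a mean of 7.90 ± 0.14 (SD, n = 3) in MCAO against 8.07 ± 0.13 in sham, lower in every pair, by 0.16, 0.20 and 0.18 in size, with no call (adjusted p = 0.767 by limma, and 0.177 with the block). Plxna1 differed by 0.0037 and Plxnb1 by 0.0098 through the probe sets used. The dimmer probe set of each read 0.18 higher without overlap of the groups, and neither passed (adjusted p = 0.608 and 0.761 by limma).

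Of the secreted semaphorins none passed, and Sema3e had the lowest difference among the guidance genes. Sema3a, the repellent ligand that binds Nrp1, read 8.67, 8.61 and 8.59 on the MCAO arrays and 8.87, 8.79 and 8.87 on the sham arrays. The groups did not overlap and each held within 0.1 log2, and the difference was -0.22 ± 0.070 (SE, n = 3 per group; adjusted p = 0.328 by limma, and 0.0974 with the block). The second of its 3 probe sets read -0.37, also without overlap, and the dimmest read -0.047. Sema3e, which binds plexin-D1 directly, read 8.77, 8.58 and 8.51 in MCAO and 9.21, 8.69 and 8.82 in sham. Here the groups overlapped because MCAO 1 exceeded sham 2, and the difference was -0.29 ± 0.14 (SE; adjusted p = 0.668 by limma, and 0.0597 with the block); it was -0.14 without sham 1. All 4 probe sets of Sema3e were lower in MCAO, between -0.22 and -0.37, and the second brightest fell with the block when probe sets were tested (-0.37 ± 0.084, adjusted p = 0.0170 by limma, and 0.162 without the block). Sema3f, a ligand of Nrp2, read -0.14 through a probe set that may also bind related transcripts. The other members of the class, Sema3b, Sema3c, Sema3d and Sema3g, lay between -0.082 and 0.14.

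Of 13 membrane-bound semaphorins, 5 were higher and 8 lower, between -0.24 and 0.23, and none passed. Sema4b and Sema4f stood at the ends of this range, at 0.23 ± 0.15 and -0.24 ± 0.11 (SE; adjusted p = 0.845 and 0.648 by limma). Sema4b read 0.18, -0.073 and 0.57 in the pairs, and its difference was 0.066 without MCAO 3. Sema4f was lower in all pairs, by 0.22, 0.18 and 0.31 in size, and its probe set may bind related transcripts. The other, dimmer probe set of Sema4f read -0.040. Sema4d, a ligand of plexin-B1 made by oligodendrocytes among other cells, read 7.90, 8.09 and 8.37 in MCAO and 7.57, 8.10 and 8.12 in sham, so the groups overlapped widely. Its dimmer probe sets had the opposite sign, at -0.11 and -0.0089. Sema5a, Sema5b, the 4 genes of class 6 and Sema7a all lay between -0.079 and 0.074. Sema6c had the smallest p of its class, at -0.079, followed by Sema6a at -0.063.

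**Figure D2:**
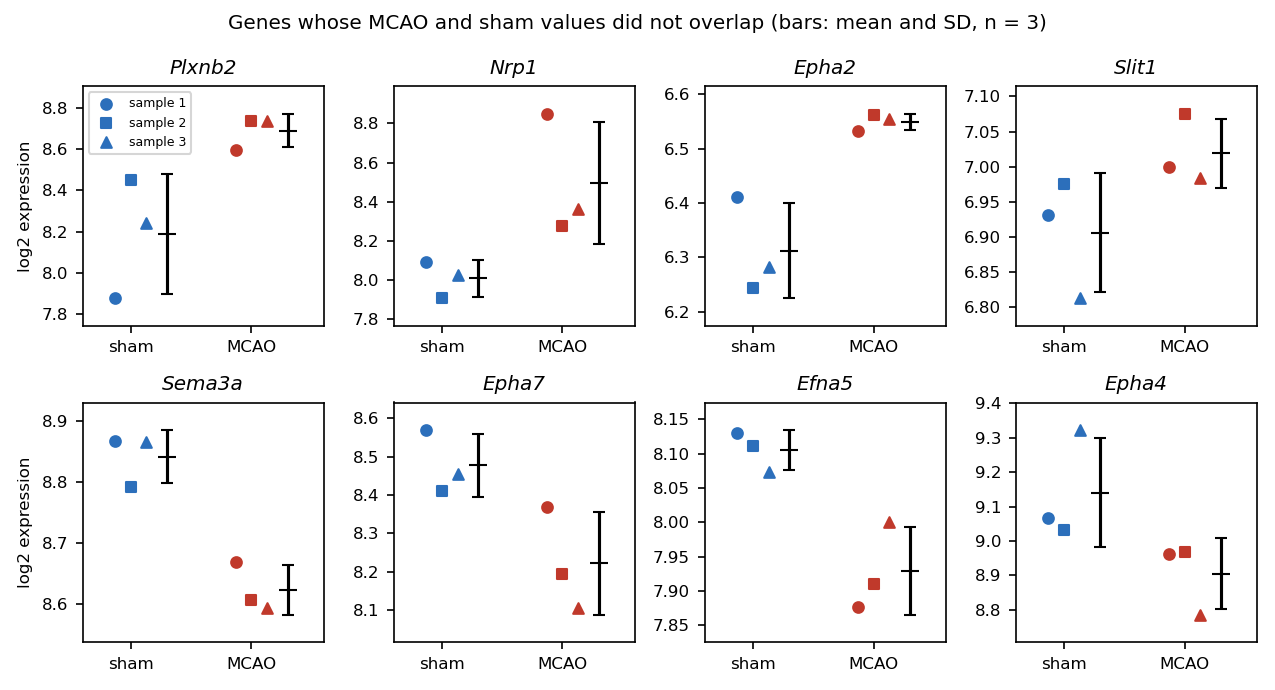
Log2 expression on each array for the 8 guidance genes whose MCAO and sham values did not overlap, with circles, squares and triangles for samples 1, 2 and 3 and bars for mean and SD (n = 3). Plxnb2, Nrp1, Epha2 and Slit1 were higher in MCAO and Sema3a, Epha7, Efna5 and Epha4 lower; the vertical scale differs between panels.

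No Eph receptor passed. Of 13 measured, 10 (76.9%) read lower in MCAO and 3 higher, where 52.3% of all genes read lower, and the 10 include Ephb4 and Ephb6, which lay within 0.004 log2 of 0. Epha7, a receptor kinase of the ephrin-A ligands, read 8.37, 8.19 and 8.10 in MCAO and 8.57, 8.41 and 8.45 in sham. No MCAO array reached the sham values, and the difference was -0.26 ± 0.092 (SE, n = 3 per group; adjusted p = 0.420 by limma, and 0.0609 with the block). Epha4, which binds ephrins of both classes, read 8.96, 8.97 and 8.79 in MCAO and 9.07, 9.03 and 9.32 in sham. The groups did not overlap, but the gap between MCAO 2 and sham 2 was small, and the difference was -0.23 ± 0.10, with pair 3 at -0.54 and the other pairs at -0.10 and -0.065. All 5 probe sets of Epha4 and all 4 of Epha7 were lower in MCAO, from -0.028 to -0.37 and from -0.041 to -0.26. Epha2 was higher, at 6.53, 6.56 and 6.55 in MCAO against 6.41, 6.24 and 6.28 in sham. Every MCAO array was above every sham array there, a difference of 0.24 ± 0.075 (SE; adjusted p = 0.317 by limma, and 0.0875 with the block), though it was dimmer than the median gene in sham. The EphB receptors differed least, with Ephb1 at -0.11, Ephb3 at 0.012, Ephb6 at -0.0039 and Ephb4, the venous receptor of ephrin-B2, at -0.00006 with a 95% interval from -0.21 to 0.21. The sign of Ephb4 turned on the deposited scale (0.015) and after a shift to a common median (0.0047).

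Among 8 ephrins, 4 were higher and 4 lower, and none passed. Efna5, a lipid-anchored ligand of EphA receptors, read 7.88, 7.91 and 8.001 in MCAO and 8.13, 8.11 and 8.07 in sham. The groups did not overlap, the difference being -0.18 ± 0.071 (SE; adjusted p = 0.511 by limma, and 0.204 with the block). Its other probe set read 0.11 with overlap of the groups, and the mean of the pair gave -0.033. Efna3, of the same class, was lower by 0.18, 0.18 and 0.18 in size in the 3 pairs, yet its groups overlapped because both arrays numbered 1 were low. Efnb2, the transmembrane ephrin of arteries and of the neurogenic niche, read 9.57, 9.22 and 9.01 in MCAO and 9.84, 9.23 and 9.29 in sham. Its highest values belonged to the arrays numbered 1 in both groups, and the difference of -0.18 ± 0.19 had a 95% interval from -0.63 to 0.27. Efnb3 read -0.15, and Efna1, Efna2, Efna4 and Efnb1 were between 0.031 and 0.054 higher.

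Slits, robos and netrins did not pass either. Slit2 and Slit3, repellents of neuroblasts and axons, were lower in every pair, by 0.17, 0.18 and 0.26 and by 0.16, 0.18 and 0.17 in size (adjusted p = 0.831 and 0.713 by limma). Slit1 read 6.999, 7.08 and 6.98 in MCAO and 6.93, 6.98 and 6.81 in sham. The groups did not overlap, by a margin under 0.01 log2 between MCAO 3 and sham 2, and the difference was 0.11 ± 0.077 (adjusted p = 0.845 by limma). The mean of its probe sets gave -0.0050. Robo1 and Robo2, receptors of the slits on neurons and neuroblasts, read -0.17 and -0.16 with opposite signs among their pairs, and Robo3 and the endothelial gene Robo4 read 0.0016 and 0.074. Ntn1, the founding netrin, had a mean of 7.35 ± 0.17 (SD, n = 3) in MCAO against 7.33 ± 0.19 in sham, and Ntn3, Ntn4 and Ntn5 lay between -0.086 and 0.041. The antisense RNA Plxna4os1 read 0.071.

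Probe sets gave a second reading for 42 of the 64 genes, with 143 in all. In 25 of the 42 every probe set had the same sign. Of the 79 probe sets not used for the gene, 8 had an unadjusted p under 0.05, and none of these had a sign opposite to that of the one used. None of the 143 passed without the block, and 4 did with it, those of Plxnb2, the brighter pair of Nrp1 and the one of Sema3e. How many of all 34958 probe sets did so was not counted, so the counts of 8 and 4 have no background beside them.

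**Figure D3:**
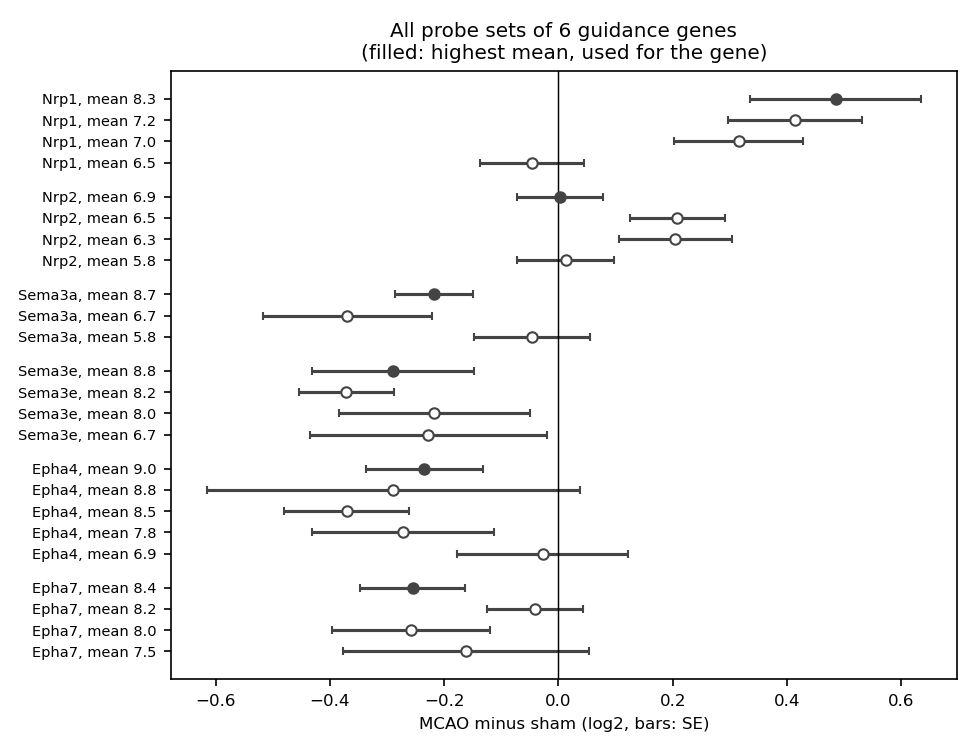
Log2 difference, MCAO minus sham, with limma's SE for every probe set of 6 guidance genes, in order of mean log2 value given beside each symbol; filled points mark the probe set used for the gene. All probe sets of Sema3a, Sema3e, Epha4 and Epha7 lie below 0, and 3 of 4 of Nrp1 lie above 0.

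Guidance genes also varied with the sample number. In a limma fit with group and number, 12 guidance genes (18.8%) passed an F test of the number at an adjusted p of 0.05, where 16.1% of all genes did. For 40 of the 64 (62.5%, and 60.1% of all genes) the mean of the arrays numbered 1 differed from that of the other 4 by more than MCAO differed from sham. Plxna2, a receptor of class 3 and class 6 semaphorins, read 9.92 and 10.17 on MCAO 1 and sham 1 and between 9.38 and 9.58 on the other 4 arrays. Both arrays numbered 1 were above all others, by 0.57 on average (adjusted p = 0.00239 by limma's F test), and Efnb2 showed the same order with 0.52 (0.00632). Sema3e and Sema5a were also higher on the arrays numbered 1 on average, by 0.34 and 0.32. Slit2 was higher there by 0.16 on average because the arrays numbered 3 were lowest, at 7.45 and 7.71. In both groups its array numbered 2 slightly exceeded the one numbered 1. Plxnb3, a plexin of oligodendrocytes, read 8.63 and 8.58 on the arrays numbered 3 and between 7.95 and 8.21 on the other 4, and Sema7a was likewise highest on both numbered 3, at 8.63 and 8.73. Ntn1 was highest on both arrays numbered 2, at 7.53 and 7.54 against at most 7.34. Sema4d, Sema4a, Efna3 and Plxna1 were lower on both arrays numbered 1 than on the other 4, with mean differences of -0.43, -0.40, -0.33 and -0.30.

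Marker levels also followed the number. The mean of 6 markers of mature oligodendrocytes was 10.67 and 10.88 on the arrays numbered 3 and 10.11 to 10.49 on the others. The mean of 6 ependymal markers was 9.37 and 9.28 on the arrays numbered 2 and 8.39 to 8.70 on the others. That of 6 striatal markers was 11.03 and 11.26 on the arrays numbered 1, the lowest of their groups, and Ppp1r1b, the striatal phosphoprotein gene, was 0.74 lower there (adjusted p = 0.00121 by limma's F test). The other striatal markers differed less there. Rgs9 read -0.40, Drd2 -0.22 and Penk -0.086 on the arrays numbered 1 against the others, and Drd1 and Tac1 read 0.025 and 0.016. The labels do not say what the numbers stand for, and the part of tissue content in these differences was not tested.

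**Figure D4:**
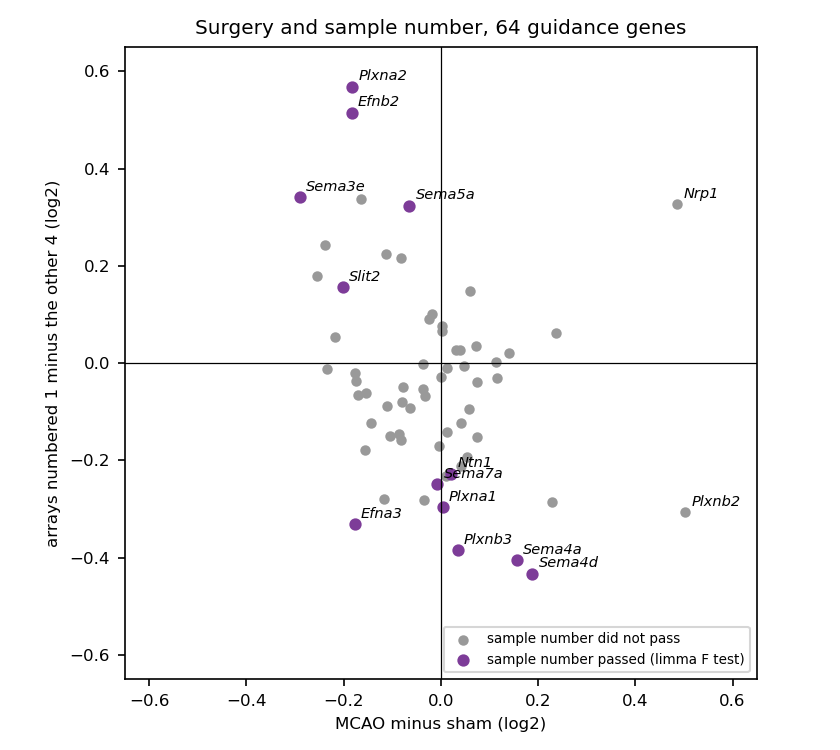
Each of the 64 guidance genes by its difference between MCAO and sham (horizontal) and between the arrays numbered 1 and the other 4 (vertical), both in log2 and to the same scale. Purple marks the 12 genes past the F test of the sample number; Plxna2 and Efnb2 lie highest at 0.57 and 0.52, while only Nrp1 and Plxnb2 lie beyond 0.4 to the right.

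Genes that act downstream or beside these ligands and receptors did not pass without the block either. Of 65 further guidance genes listed, 61 were measured; 20 were higher and 41 lower in MCAO (67.2%, and 52.3% of all genes), with a median of -0.044 log2. None passed by limma, and 7 had an unadjusted p under 0.05 (11.5%, and 8.77% of all genes). With the block 4 rose and 2 fell (9.84%, and 6.12% of all genes). Dpysl3, a collapsin response mediator of growth cones and neuroblasts, rose by 0.38 ± 0.096 (SE; adjusted p = 0.0141 by limma with the block, and 0.174 without it). The small GTPase Rhoa rose by 0.34, the adhesion molecule Nrcam by 0.30 and the growth factor receptor Met, a plexin-B partner, by 0.33 (0.0223, 0.0343 and 0.0236). The kinase Gsk3b fell by 0.32 and the adhesion molecule L1cam fell by 0.27 (0.0489 and 0.0404). On the values as deposited the block no longer called Gsk3b, L1cam or Met (adjusted p = 0.104, 0.210 and 0.0680 by limma), and it kept Dpysl3, Rhoa and Nrcam. Among the 6, only the values of Dpysl3, Nrcam and Met did not overlap between groups.

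Among receptors and ligands of the netrin and repulsive guidance group, 10 of 12 were lower and none passed. Dcc, the netrin receptor, read -0.26 and Unc5d, its repulsive counterpart, -0.21 (adjusted p = 0.499 and 0.636 by limma). Of 7 myelin inhibitors and their receptors 6 were lower, with Omg, the oligodendrocyte-myelin glycoprotein, at -0.27 and Rtn4, which encodes Nogo, at -0.14 (0.352 and 0.795). Of the mediators, Mical2 read -0.20, the slit effector Srgap3 -0.17 and the ephexin Ngef -0.24 without passing, and the adaptor kinase Abl1 read -0.12.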

How the data were processed

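Biotin-labelled total RNA of 3 MCAO and 3 sham samples was hybridised to 1-colour arrays, and the authors deposited log2 values for 45101 probe sets, with background correction, probe summary and normalization not given in the sources used here. The deposited medians lay between 6.57 and 6.59 and the 90th percentiles between 8.85 and 9.06, so quantile normalization between arrays was added. The array's annotation gave 1 symbol to 34958 probe sets, and the one with the highest mean over 6 arrays stood for each of 18194 genes; all 64 guidance genes were found in RefSeq by gene number. The 2 groups were compared with limma (version 3.58.1, R 4.3.3), 2-sided, with Benjamini-Hochberg adjustment over all genes, which was tested on simulated data. Same-numbered arrays deviated together (r across genes 0.77, 0.44 and 0.48 for numbers 1, 2 and 3), so the numbers were taken to pair them, and a fit with the number as a block was run beside the unblocked one. A permutation test of 3 against 3 cannot go below p = 0.1, and the number of arrays limits the precision. Named were guidance genes past the threshold with or without the block, the 2 with the smallest p of each family, and 17 chosen for their known roles, of which Ephb2 was not analysed here; other guidance genes are given as values. Named besides were the 2 genes with the smallest p of 6 pathway lists, and those past the block. There were 15 cell type lists, with 90 of 100 markers measured. All measured markers of endothelial cells, astrocytes, microglia, and monocytes and macrophages are given. In the other lists the named markers were mostly those past the block and others beside them. The first 2 markers, planned for every list, are not given for all of those. The members and lists were chosen with earlier results of these data known. On simulated data the F test of the sample number made slightly more false calls than its nominal rate when limma's moderated variances set the spread, and called none of the shifted genes when each gene's own variance did. That F test, the test of every probe set and the block without each pair were added after seeing the data.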

Additional observations from a re-analysis of the deposited data

How the results depend on the processing

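No guidance gene passed without the block in any alternative run, leaving out each array included. With the replicate block 2 passed, also on the values as deposited, and without the pairs numbered 1, 2 and 3 the block gave 1, 8 and 2; the 8 were Plxnb2, Nrp1, Sema4b and Sema4d higher and Efnb2, Robo1, Robo2 and Sema3e lower. Over all genes 206 passed, 1113 once blocked, 817 when the deposited values were blocked, 688, 1712 and 648 with the block without pairs 1, 2 and 3, and between 44 (without sham 3) and 209 with 1 array left out. Of pathway genes 6 passed with the block (4 higher, 2 lower), 3 on the deposited values with it (3 higher, none lower), 6 and 1 with it without pairs 2 and 3, and 0 otherwise. The median difference over guidance genes was -0.082 among the 35 above the median gene by their mean over all 6 arrays, which leaves out dim genes by construction. Over 33 named guidance genes and their alternatives, 618 values in all, 554 kept their direction and side of the threshold and 15 passed newly, all with a block: 9 of Nrp1 and Plxnb2, and 1 each of the other 6 genes named above, without pair 2. In 49 the sign changed, and none of these 49 was past the threshold. On the values as deposited, with or without the block, Ephb4 read 0.015 and Sema7a 0.017, after a shift to a common median 0.0047 and 0.0060, and without both arrays numbered 1, with or without the block, Ephb4 read 0.022, Nrp2 -0.014, Sema6a 0.021 and Sema7a 0.030. With the block and without pair 2 Ephb4 read 0.093, Ntn4 -0.020, Ntn5 0.031 and Sema6c 0.0092, and without pair 3 Ephb3 read -0.038, Nrp2 -0.028, Ntn1 -0.0025, Robo1 0.030, Robo2 0.085 and Sema7a 0.037. By the mean of probe sets Ntn1 read -0.0019, Sema6a 0.011 and Slit1 -0.0050. With 1 array left out the ranges were -0.33 to 0.010 for Efnb2, -0.24 to 0.00043 for Efnb3, -0.031 to 0.044 for Ephb3, -0.065 to 0.048 for Ephb4, -0.028 to 0.055 for Nrp2, -0.067 to 0.13 for Ntn1, -0.15 to 0.010 for Ntn5, -0.29 to 0.012 for Robo1, -0.21 to 0.065 for Sema5a, -0.032 to 0.11 for Sema5b, -0.12 to 0.0099 for Sema6a and -0.12 to 0.15 for Sema7a. The cause of these shifts was not tested. Values near the low end of the scale, where the background is unknown, limit what Robo2, Ntn3 and other dim genes can show.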
